A study of Mus musculus with 38 samples.

Results

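A02 is the plate code of 1 of 21 target assays that were read by quantitative real-time PCR in the hearts of mice after ischemia and reperfusion. It was chosen by its measured values, namely a target Ct of about 15 in sham hearts and a lower relative expression in LAD than in sham hearts at both times, so these values are described here without a test. Both an A02 reading and the reference reading listed with it were present for 22 of 38 mice, which is the smallest number for any of the assays (the others had 23 to 35). No source used here pairs the plate codes with genes, and the transcript that A02 amplifies is therefore not named.

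All animals were male C57BL/6N mice of 8 to 10 weeks. The left anterior descending coronary artery was tied for 30 min and then released, and the area at risk of the left ventricle was taken 24 or 96 h after surgery. LAD mice were injected with empty solid lipid nanocarriers at the start of reperfusion, whereas MLAD mice received the same carriers loaded with Myriocin (SLN/myr) in the ventricular muscle. Sham mice had the operation without the occlusion, and a sample of their left ventricle was used. Values of A02 came from 3 Sham, 4 LAD and 4 MLAD mice at 24 h and from as many at 96 h. The tissue differed between sham and operated hearts, as a sample of the left ventricle was set against an area at risk. In tissue of mixed cells, fewer cells of a type and less RNA per cell cannot be told apart.

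Myriocin inhibits serine palmitoyltransferase, the enzyme of the first and rate-limiting step of sphingolipid synthesis, and thereby lowers the formation of ceramides. The heart draws most of its energy from the oxidation of fatty acids, and ischemia followed by reperfusion is known to shift cardiac muscle away from this fuel and to alter its contractile gene program. The panel to which A02 belongs was built around these processes. Its targets comprised myosin heavy chains, regulators of the PPAR family, carriers of lipids across the plasma membrane, lipid droplet proteins and enzymes of mitochondrial fatty acid oxidation.

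Every A02 value was read against a reference reading of the same mouse, which was taken as RPLI, the endogenous control that the study names. The RPLI primers, from the study's primer table, are shown because this amplicon enters each relative expression given below if the reference is RPLI. Both are 18 bases long. The pair that amplified A02 cannot be told from the plate code.
RPLI forward primer: ctcggccgttctcctgta
RPLI reverse primer: gtggaagtggggcttcag

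Ct is the PCR cycle at which the fluorescence of an assay crosses a threshold, so that a low Ct stands for much template and a step of 1 cycle for roughly a doubling. The target Ct of A02 lay between 14.3 and 19.8 over the 22 mice, with a median of 16.5, whereas the median over all assays and mice was 28.2. The next lowest median was that of A12, at 18.4. A02 had the lowest target Ct of the panel in 20 of 22 mice, and its Ct was below that of A12 in 15 of the 17 mice with both. The exceptions were MLAD replicate 4 at 24 h, with 18.1 for A12 and 18.2 for A02, and Sham replicate 5 at 96 h, with 14.9 for A12 and 15.4 for A02. Since Ct also depends on the efficiency of the primers and on the length of the amplicon, which were not known for A02, this order of assays is no order of transcript abundance.

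In the 24 h sham hearts, the target Ct of A02 was 15.3, 15.4 and 15.0 in replicates 1, 2 and 3. The 24 h LAD hearts gave 15.1, 17.0, 15.6 and 17.0 in replicates 1 to 4. The 24 h MLAD hearts gave 16.6, 17.7, 18.2 and 18.4 in replicates 1, 2, 4 and 5. The sham readings thus lay close together, and 2 of 4 LAD readings fell within or next to them. At 96 h, sham hearts read 14.3, 14.3 and 15.4 in replicates 1, 3 and 5. The LAD hearts of that time read 17.4, 17.5, 19.8 and 16.6 in replicates 1 to 4, and the MLAD hearts 16.4, 15.7, 15.7 and 17.3. The latest A02 reading of all was therefore that of LAD replicate 3 at 96 h, and no LAD or MLAD heart at 96 h read as early as a sham heart.

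The reference readings also varied between mice. At 24 h they were 26.6 in all 3 sham hearts, between 25.0 and 27.3 in LAD and between 26.8 and 27.5 in MLAD hearts. The SD of these sham readings was 0.0179 cycles, whereas the next smallest SD of a group was 0.285, in MLAD at 24 h. The reason for so small a spread was not tested. At 96 h the reference readings ranged from 24.4 to 26.8 in sham, from 23.7 to 26.3 in LAD and from 25.4 to 26.5 in MLAD hearts. Sham replicate 5 at 96 h, with 26.8, stood apart from the other sham hearts of that time (24.4 and 24.5), and LAD replicate 4 at 96 h, with 23.7, stood apart from the other LAD hearts (26.1 to 26.3). The reference Ct averaged 27.2 ± 0.285 (SD, n = 4) in MLAD and 26.3 ± 1.03 (SD, n = 4) in LAD at 24 h, a difference of 0.841 cycles (p = 0.2, two-sided exact permutation test). The other tested differences in reference Ct were 0.474 cycles for MLAD minus LAD at 96 h (exact permutation p = 0.6), 0.571 for MLAD minus Sham at 24 h (exact permutation p = 0.0571) and 0.877 for MLAD minus Sham at 96 h (exact permutation p = 0.286). After adjustment over these 4 comparisons the lowest p was 0.229. In the reference rows of the other assays under the same mouse numbers, MLAD minus LAD at 24 h was 0.879 cycles, and the exact permutation p was 0.0286, the smallest value for 4 against 4 mice. Many readings of the other assays recur under another assay or mouse, as given below, and a number may not stand for the same mouse in every assay.

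**Figure D1:**
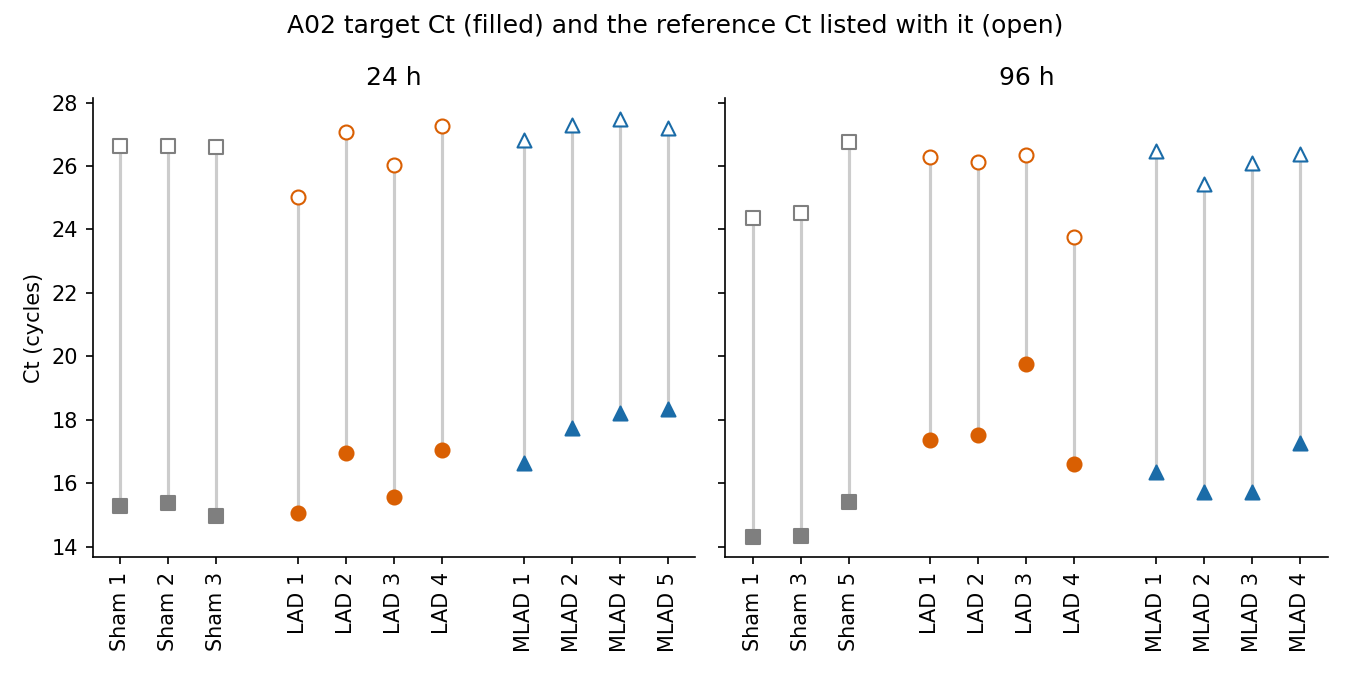
Ct in cycles (vertical axis) of A02 (filled symbols) and of the reference listed with it (open symbols) in each of the 22 mice, at 24 h (left) and 96 h (right); a grey line joins the readings of a mouse, and its length is the relative expression. A02 lies between 14.3 and 19.8 cycles and the reference between 23.7 and 27.5.

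The other assays carry reference readings of their own for mice of the same number, and these did not always match those of A02. The reference Ct of A02 minus the mean of the others was −0.0260 ± 0.0252 cycles in sham hearts at 24 h, but 1.19 ± 0.842 in LAD and 1.16 ± 0.245 in MLAD hearts (SD, n = 3, 4 and 4). At 96 h the same offset was 0.329 ± 2.03 in sham, −0.0844 ± 0.985 in LAD and 0.235 ± 0.953 in MLAD hearts, with 2.65 cycles in Sham replicate 5 and −1.40 in LAD replicate 4. Whereas 347 of 580 reference readings of the other assays recurred under another assay or mouse, 0 of 22 did so for A02, as did 0 of 30 for A01. The mice behind a given number may not have been the same in every assay, which was not tested.

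The A02 Ct of a mouse was subtracted from its reference Ct to give the relative expression, a log2 scale on which 1 unit is a 2-fold change. At 24 h it was 11.37, 11.25 and 11.64 in the sham hearts, in the order of replicates given above. The LAD hearts had 9.98, 10.12, 10.48 and 10.21, and the MLAD hearts 10.17, 9.54, 9.29 and 8.83. All LAD and MLAD hearts at 24 h were below all sham hearts, and 3 of 4 MLAD hearts were below every LAD heart. At 96 h the sham hearts had 10.05, 10.19 and 11.34. The LAD hearts of that time had 8.92, 8.61, 6.58 and 7.14, and the MLAD hearts 10.12, 9.73, 10.37 and 9.12. The LAD hearts at 96 h were below every other heart of that time, while MLAD and sham hearts overlapped.

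**Figure D2:**
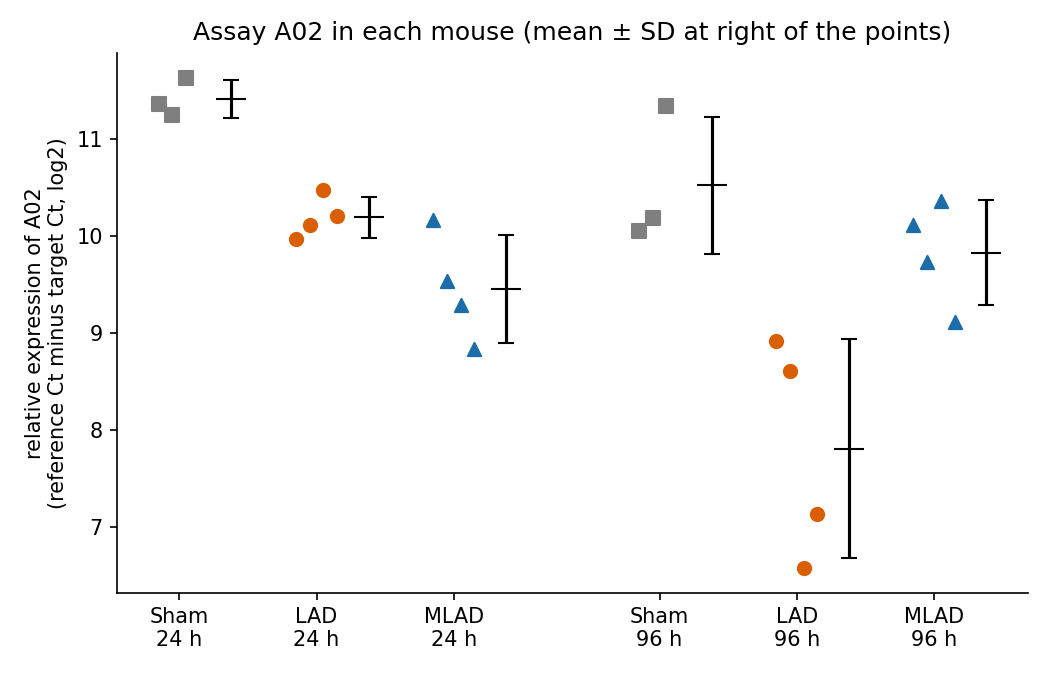
Relative expression of A02 (reference Ct minus target Ct, log2 scale) in each mouse of the Sham, LAD and MLAD groups at 24 and 96 h; the cross bar and whiskers at the right of the points are the mean ± SD (n = 3, 4 and 4 at each time). LAD lies below Sham at both times, whereas MLAD overlaps LAD at 24 h and lies above it at 96 h.

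The mean relative expression was 11.42 ± 0.20 in Sham (SD, n = 3), 10.20 ± 0.21 in LAD (n = 4) and 9.46 ± 0.56 in MLAD (n = 4) at 24 h. At 96 h it was 10.53 ± 0.71 in Sham (n = 3), 7.81 ± 1.13 in LAD (n = 4) and 9.83 ± 0.54 in MLAD (n = 4). From high to low the groups thus ran Sham at 24 h, Sham at 96 h, LAD at 24 h, MLAD at 96 h, MLAD at 24 h and LAD at 96 h. Neighbours in this order overlapped in every case, so that none was set apart from the next by more than the range of its mice. Expressed as the quantity relative to sham of the same time, on a linear scale, LAD hearts held 0.432 ± 0.0657 and MLAD hearts 0.272 ± 0.108 at 24 h (SD, n = 4 each). At 96 h these quantities were 0.188 ± 0.128 and 0.650 ± 0.224 (SD, n = 4 each). The sham hearts themselves spread from 0.891 to 1.16 at 24 h, but from 0.719 to 1.76 at 96 h.

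LAD hearts differed from sham hearts by the occlusion and reperfusion and by the tissue sampled, which cannot be told apart in this comparison. Whether sham mice also received empty carriers was not found in the sources used here. A02 was selected on the difference between LAD and Sham, and its values are a description only. In relative expression, LAD minus Sham was −1.22 at 24 h (SE 0.156), a 2.34-fold lower level. At 96 h LAD minus Sham was −2.72 (SE 0.698), a 6.57-fold lower level. The median of the 21 assays was −0.32 at 24 h and −1.17 at 96 h, and A02 stood 3rd from the lowest at 24 h and 5th at 96 h. At 96 h most of the difference lay in the target reading, as LAD minus Sham was 3.12 cycles for the A02 Ct and 0.403 for the reference Ct. At 24 h these were 0.953 and −0.271 cycles, so both readings widened the gap. The size at 24 h depended on the reference, with −0.95 for no reference, −2.25 against the mean of the other targets and −2.38 against all reference readings of the mouse. At 96 h the same choices gave −3.12, −1.47 and −2.36, so that the larger fall at 96 h was not found with the last 2 of them. With no reference, LAD minus Sham of the median assay was 0.79 at 24 h and −2.15 at 96 h. The mean of the other targets therefore takes out a change that the panel shared. These last 2 references were matched by mouse number, which may not stand for the same mouse in every assay.

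The comparison of MLAD with LAD asks what Myriocin changed in the injured tissue. Its LAD mice entered the choice of A02 by their low values, which favours MLAD above LAD in advance. The tests of this comparison are therefore no independent evidence. At 24 h MLAD minus LAD was −0.74 (SE 0.298) in relative expression, with a limma 95% interval of −1.65 to 0.17. Here and below, the SE of a difference between groups comes from the spread within the groups compared, whereas the limma interval uses a spread pooled over all groups. This difference did not pass the test (exact permutation p = 0.0857, Benjamini-Hochberg adjusted p = 0.36 over the 21 assays, limma adjusted p = 0.323). In this comparison 1 of 21 assays passed by the exact permutation test, 4.76% of the panel, and 1 by limma. With the replicate number as a block, since the mice of a number moved together in these groups, the difference of A02 was −0.44 (limma adjusted p = 0.374) and 3 assays passed. For A02 this value rests on 3 pairs, and the tests given before it took no account of pairing. The median assay differed by 0.19, and A02 had the second lowest difference of the panel. Its distance to the panel median was −0.93, and it was −0.87, −1.04 and −0.90 when no reference, the mean of the other targets or the mean of all reference readings of the mouse was used.

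At 96 h the level of A02 was higher in MLAD than in LAD hearts, whose low values were part of the choice of A02. MLAD minus LAD was 2.02 (SE 0.628), a 4.06-fold higher level, and all 4 MLAD hearts were above all 4 LAD hearts. The two-sided exact permutation test gave p = 0.0286, the smallest value that 4 against 4 mice allow, with an adjusted p of 0.0417, and the adjusted p of limma was 0.000256. The limma 95% interval was 1.11 to 2.93, but its pooled SE of 0.441 is smaller than the SE of these groups, since the LAD hearts at 96 h had the widest spread (SD 1.13). A change of this kind was common in the panel, as 16 of 21 assays passed by the exact permutation test (76.2%), 15 of them higher and 1 lower in MLAD. The median assay was 1.54 higher, and A02 stood 16th from the lowest. Relative to the panel median, A02 was 0.49 higher with its own reference reading, but −0.12, −0.07 and −0.07 with no reference, the other targets or all reference readings.

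The call at 96 h was lost with each other choice of reference, and with the same reference when medians were compared (exact permutation adjusted p = 0.075) or when p was adjusted over all 105 tests (0.0962 by the same test). The difference was 1.55 in the A02 Ct alone (exact permutation p = 0.0571, adjusted p = 0.15) and 1.72 against the mean of all reference readings of the mouse (adjusted p = 0.2 by the same test). Against the mean of the other targets it was 0.39 (adjusted p = 0.738 by the same test). With no reference, MLAD minus LAD of the median assay was 1.67, so this mean takes out a change that the panel shared. Both this mean and that of all reference readings were matched by mouse number, which may not stand for the same mouse in every assay. With LAD replicate 4, whose reference reading stood apart, left out, the difference was 1.80, and 3 against 4 mice cannot give a p under 0.0571.

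Whether the difference between MLAD and LAD changed with time was tested by the interaction term of a limma model, in which the 22 mice with an A02 value entered. The difference at 96 h minus that at 24 h was 2.76 (limma SE 0.624, 95% interval 1.47 to 4.05, limma adjusted p = 0.000640). This test is no independent evidence, as it rests mainly on the LAD values by which A02 was chosen, with a mean at 96 h minus that at 24 h of −2.38 in LAD and of 0.38 in MLAD. Of the 21 assays, 12 passed this test (57.1%), 11 higher and 1 lower, and the median over all assays was 1.42. A02 ranked 19th from the lowest, and it was among the 6 assays with MLAD below LAD at 24 h and above it at 96 h, although its 24 h difference did not pass. The interaction was 1.39 against the mean of the other targets (limma adjusted p = 0.388) and 2.42 against the mean of all reference readings (limma adjusted p = 0.0942), so that it no longer passed with either. As the panel median was 1.42, the mean of the other targets takes out a change that the panel shared. Both references were matched by mouse number, which may not stand for the same mouse in every assay.

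**Figure D3:**
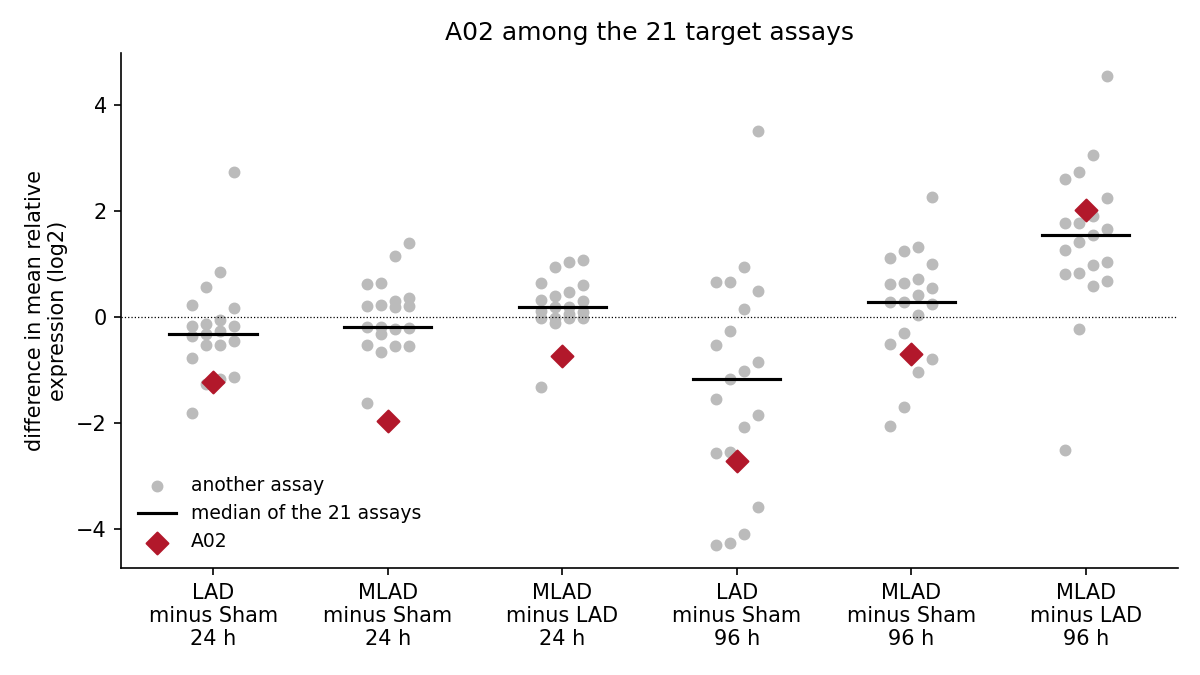
Difference in mean relative expression (log2 scale, vertical axis) of A02 (red diamond) and of each of the other 20 target assays (grey points) in 6 comparisons of groups at 24 and 96 h; the black bar is the median of the 21 assays. A02 has the lowest difference of the panel for MLAD minus Sham at 24 h (−1.96) and lies near the median for MLAD minus LAD at 96 h (2.02 against 1.54). The Sham and LAD values entered the choice of A02.

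Against sham hearts, MLAD hearts had a lower mean level of A02 at 24 h. MLAD minus Sham was −1.96 (SE 0.301, limma 95% interval −2.95 to −0.98), a 3.90-fold lower level, and all 4 MLAD hearts were below all 3 sham hearts. The sham mice entered the choice of A02 by their low target Ct and by values above LAD, which favours MLAD below Sham in advance. These tests against Sham are therefore no independent evidence. The exact permutation test gave p = 0.0571, the smallest value of 4 against 3 mice, and an adjusted p of 0.2, whereas the adjusted p of limma, which shares the spread among all mice, was 0.00892. By the exact permutation test 0 of 21 assays passed after adjustment (0%) and 3 did at an unadjusted p under 0.05, while limma passed 2 after adjustment and 5 before it. A02 had the lowest difference of the 21 assays, against a median of −0.19. It stayed below the panel median by each choice of reference, with −1.77 for its own reading and −2.81, −3.02 and −2.82 for no reference, the other targets and all reference readings.

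The sham hearts at 96 h entered the choice of A02 in the same way, so their comparison with MLAD is no independent evidence either. MLAD minus Sham at 96 h was −0.69 (SE 0.491, limma 95% interval −1.68 to 0.29), and the groups overlapped. This difference did not pass (exact permutation p = 0.286, adjusted p = 0.333, limma adjusted p = 0.238), and the interval holds a 2-fold lower level as well as no difference. With 4 against 3 mice the exact permutation test cannot give a p under 0.0571, so A02 could not pass by it. After adjustment 0 of 21 assays passed by the exact permutation test (0%), 10 did at an unadjusted p under 0.05, and limma passed 4 after adjustment and 9 before it. The difference was −0.29 without Sham replicate 5, whose reference reading stood apart. The median assay was 0.28 higher in MLAD than in Sham, and A02 stood 5th from the lowest.

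**Figure D4:**
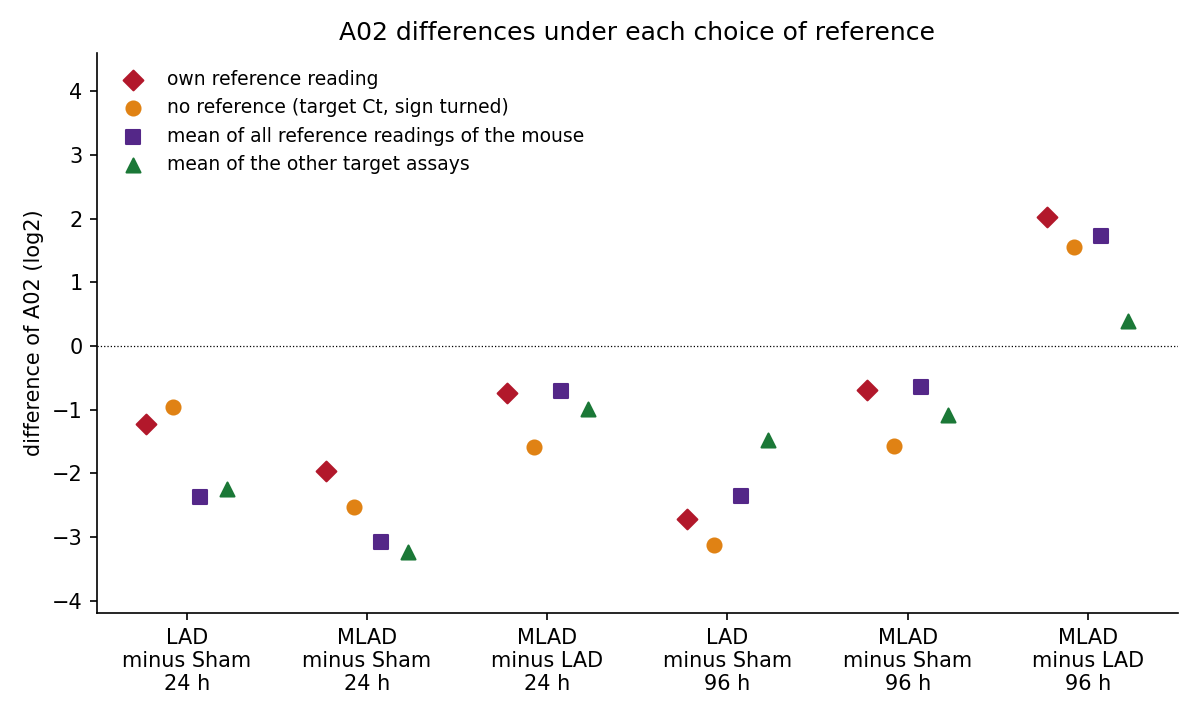
Difference of A02 between groups (log2 scale, vertical axis) in 6 comparisons, with its own reference reading (red diamonds), no reference (orange circles), the mean of all reference readings of the mouse (purple squares) or the mean of the other target assays (green triangles). The sign holds under all 4 choices in each comparison, while MLAD minus LAD at 96 h goes from 2.02 to 0.39.

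A02 was chosen with earlier results of these data known, but the values named in its choice were not those of MLAD mice. The times of these mice can be set against each other. The mean was 0.38 higher at 96 than at 24 h (SE 0.389, limma 95% interval −0.54 to 1.29), which did not pass (exact permutation p = 0.371, adjusted p = 0.459, limma adjusted p = 0.498). The difference was larger by other choices, namely 1.47 with no reference, 1.39 against the mean of the other targets, 1.25 against all reference readings and 1.26 with each time set to its own sham hearts on the linear scale. By the exact permutation test none of these passed, with adjusted p of 0.19, 0.333, 0.364 and 0.12. The value set to sham hearts also takes in their change with time, and these hearts entered the choice of A02. In this comparison 4 of 21 assays passed by the exact permutation test (19%), 2 higher and 2 lower, and the median assay was 0.15 higher. In the groups that did enter the choice, the mean at 96 h minus that at 24 h was −0.89 in Sham and −2.38 in LAD, given without a test. The readings behind these means moved differently, as the A02 Ct of LAD hearts was 1.66 cycles later at 96 h and that of MLAD hearts differed by −1.47 cycles, while the reference Ct was earlier at 96 h in all 3 groups, with differences of −1.40 cycles in Sham, −0.728 in LAD and −1.10 in MLAD. Whether the times were run apart was not tested.

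Among the 6 assays that shared at least 20 mice with A02, A11 had the pattern most like it, with a Pearson correlation of relative expression of 0.749 over 22 mice. Of these 6, A06 and A10 came next, with 0.491 and 0.459 over 21 mice each, and A01 was the most unlike, with −0.731 over 22 mice. The other 14 assays shared fewer mice, with correlations from −0.171 (A03, 19 mice) to 0.720 (B08, 16 mice). Some of them were thus more like A02 than A06 and A10. The assays were matched by mouse number, which may not stand for the same mouse in every assay, and this was not tested. The mice of a group share their treatment, and the mean of a group moves all its points. The correlation of deviations from the group means was 0.210 for A11, 0.103 for A06, −0.440 for A10 and −0.0102 for A01. In the assays with fewer shared mice it ranged from −0.557 (A09, 19 mice) to 0.768 (A05, 14 mice).

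The LAD hearts at 96 h lay away from the rest in A11, and without them its correlation with A02 was 0.315 over 18 mice. The other correlations without these hearts were −0.0586 for A06, −0.157 for A10 and −0.605 for A01. The likeness to A11, A06 and A10 therefore rested on the LAD hearts at 96 h. Without the 2 mice farthest from the A02 median, LAD replicates 3 and 4 at 96 h, they were 0.576, 0.246, 0.377 and −0.715 for A11, A06, A10 and A01.

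In all its mice, A11 averaged −0.29 ± 0.96 in LAD at 96 h (SD, n = 5) and between 2.26 and 2.93 in the other groups. At 24 h, where the LAD and MLAD values of A02 lay below those of Sham, A11 overlapped between Sham (2.93 ± 0.28, n = 5), LAD (2.86 ± 0.69, n = 6) and MLAD (2.74 ± 0.30, n = 6). A01 ran the other way, from −5.38 ± 0.15 in Sham (n = 3) to −2.66 ± 0.66 in LAD (n = 4) at 24 h, and from −4.24 ± 0.49 in Sham (n = 4) to −0.74 ± 1.04 in LAD (n = 6) at 96 h. Its MLAD means were −3.98 at 24 h (from −6.06 to −1.71 over 7 mice) and −3.25 at 96 h (from −4.13 to −2.13 over 6 mice), between those of Sham and LAD at both times. These levels are log2 values against the reference of each assay and do not compare transcripts with each other.

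**Figure D5:**
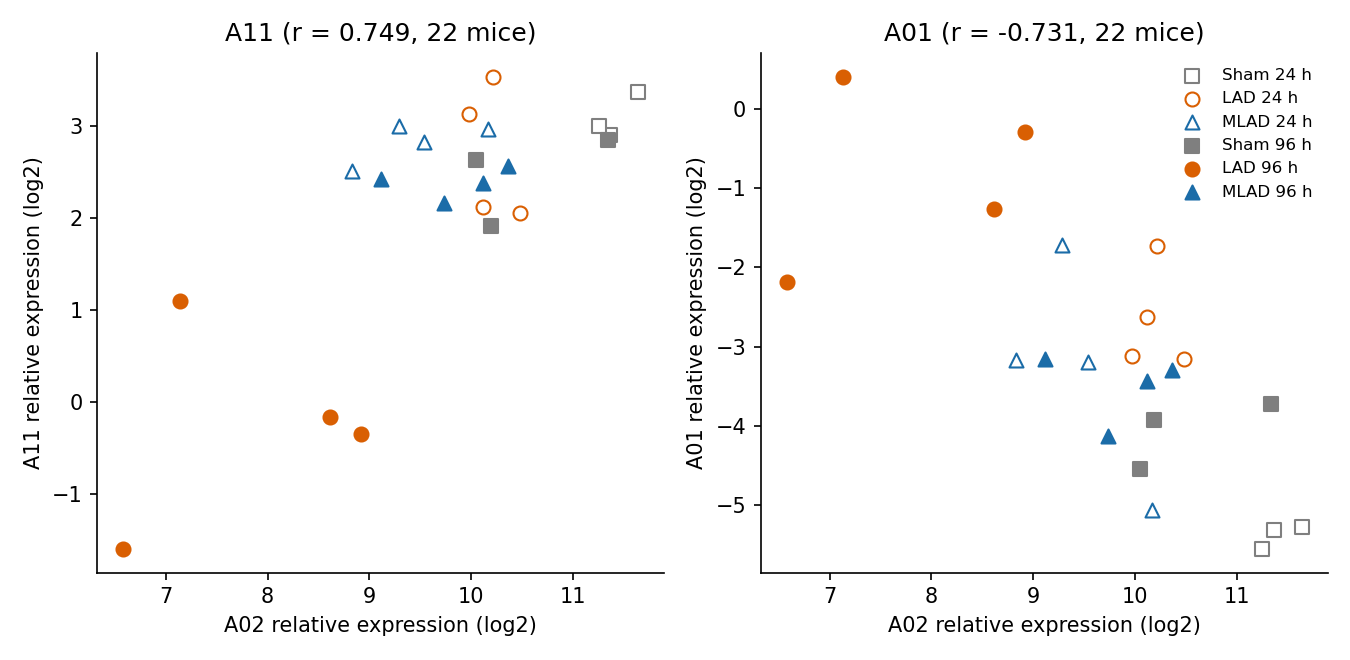
Relative expression (log2 scale) of A11 (left) and A01 (right) on the vertical axis against that of A02 on the horizontal axis, with a point for each of the 22 mice; colour and shape give the group, open symbols 24 h and filled symbols 96 h. The 4 LAD hearts at 96 h lie at the low end of A02 and away from the others in A11.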

How the data were processed

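The data are quantitative real-time PCR readings of mouse left ventricle. The authors isolated total RNA, reverse transcribed 1 µg of it, amplified it with SYBR green over 40 cycles, and deposited the unnormalized Ct values, in which each target reading of a mouse is followed by a reference reading. How wells were combined, the threshold and the reason for empty cells were not found in the sources used here. A deposited table of the authors' own ratios to sham (fold changes) was not used. Columns were assigned by the sample numbers in the labels, and 0 columns of values per mouse were left unused. The labels name separate mice. Ct files give no read depth, so the number of mice limits the precision.

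The target Ct was subtracted from the reference Ct of the same mouse (relative expression). For the relative quantity, the sham mean of the time point was subtracted and 2 was raised to the result. Groups were compared with two-sided exact permutation tests that ran through every regrouping of the mice, where p is 2 times the smaller tail and Benjamini-Hochberg adjustment over the 21 assays of a comparison, at 0.05. Intervals and the interaction came from limma 3.58.1 in R 4.3.3, with a mean per group, fitted over all assays and mice. Python 3.11.15, NumPy 2.4.6, pandas 2.3.3, SciPy 1.17.1 and matplotlib 3.10.9 were used. The tests were tested on simulated data. The alternatives were other references (none, the mean of the other targets after each was centred on its mean over mice, or the mean of all reference readings), the linear scale, medians, limma, a replicate block and leaving out each mouse.

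A02 and the rule for other assays were chosen with earlier results of these data known. The rule names the 3 assays with the highest and the 1 with the lowest correlation with A02 over at least 20 mice. Different mice carry the same replicate number. Same-numbered MLAD and LAD mice at 24 h deviated together over the assays in all 7 pairs (r from 0.150 to 0.654). These numbers were therefore taken as pairs in a limma fit with a block, given beside the unpaired tests. Of these pairs, 3 had an A02 value in both mice. The pooled r of the other comparisons of groups was −0.104 to 0.121, with at least 1 pair below 0.1, and these were not taken as paired.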

Additional observations from a re-analysis of the deposited data

Results flagged for a closer look

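The reference reading of A02 in LAD replicate 4 at 96 h lay far from the others of its group. Its gap to the nearest reading was 0.916 of the range of the group, above the critical value of Dixon's test for 4 mice. This was 1 of 12 groups of readings tested, of which chance gives 0.6, and 6 groups of 3 mice were not tested.

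The difference between MLAD and LAD was larger at 96 h than at 24 h, by 2.76 in relative expression (limma adjusted p = 0.000640). It rests mainly on the LAD values by which A02 was chosen, as the mean at 96 h minus that at 24 h was −2.38 in LAD and 0.38 in MLAD. The call was lost against the mean of the other targets (limma adjusted p = 0.388) and against all reference readings (limma adjusted p = 0.0942). The former takes out a change that the panel shared, as the median of the 21 assays was 1.42. All 4 MLAD hearts were above all LAD hearts at 96 h, whereas 3 of 4 were below them at 24 h.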

How the results depend on the processing

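Over 12 results, 49 of 64 alternatives kept the direction and the side of the threshold, or a value with no test within 1 SD. For MLAD minus Sham, in A02 and in its reference Ct, 4 against 3 mice cannot give an exact permutation p under 0.0571. Alternatives by that test could therefore change in direction only. With no reference, MLAD minus LAD at 96 h was 1.55 and LAD minus Sham at 24 h −0.95. Against the mean of the other targets these were 0.39 and −2.25, LAD minus Sham at 96 h was −1.47, and the interaction 1.39. This mean itself differed between the groups and takes out changes that the panel shared. Against all reference readings, MLAD minus LAD at 96 h was 1.72, LAD minus Sham at 24 h −2.38, and the interaction 2.42. This reference and the mean of the other targets were matched by mouse number, which may not stand for the same mouse in every assay. The medians differed by 2.05 for MLAD minus LAD at 96 h (exact permutation adjusted p = 0.075), and its adjusted p over all 105 tests was 0.0962. The reference rows of the other assays differed by 0.879 cycles for MLAD minus LAD at 24 h and, in the opposite direction to that of A02, by −0.611 for MLAD minus Sham at 24 h. The cause was not tested. Dropping the reference moved the median of all assays by −0.90 and 0.13 for MLAD minus LAD at 24 and 96 h.

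In limma, MLAD minus Sham at 24 h was −1.96 and passed, with sham hearts whose values entered the choice of A02. With a replicate block, MLAD minus Sham rests on 2 pairs with A02 at each time, and these groups were not taken as paired. It was −1.46 at 24 h and passed, and it turned to 0.12 at 96 h (limma adjusted p = 0.81). For MLAD minus LAD at 24 h, where the numbers were taken as pairs, the replicate block gave −0.44 for A02 from 3 pairs. The block changed no other call.

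Leaving out each mouse gave −0.98 to −0.53 for MLAD minus LAD at 24 h and 1.61 to 2.39 at 96 h, where 3 against 4 mice cannot go below p = 0.0571 by the exact permutation test. It gave −2.20 to −1.75 and −0.93 to −0.29 for MLAD minus Sham, −1.32 to −1.11 and −3.09 to −2.31 for LAD minus Sham, 0.17 to 0.61 for MLAD over time and 2.35 to 3.13 for the interaction. MLAD minus LAD in reference Ct at 96 h was −0.151 to 0.711 cycles, with the negative value without LAD replicate 4. The depth of PCR is not given, and the 3 or 4 mice per group limit the precision.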
